A study of Mus musculus with 5 samples.

Results

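Duxf3 is a mouse double homeobox gene on chromosome 10, and the peaks called in and around it were described in 3 chromatin immunoprecipitation and sequencing (ChIP-seq) libraries of stimulated dendritic cells. The members were chosen by the deposited peak regions themselves: every peak on chromosome 10 whose region starts from 58150000 to 58300000 (mm10), with most weight on those that the authors place inside Duxf3, at a distance of 0. This rule took 29 of the 2548 peaks listed in all, namely 10 of the 857 WT H3K27ac peaks, 10 of the 844 KO H3K27ac peaks and 9 of the 847 WT EGR1 peaks. Of the 29, the authors place 7 inside Duxf3, which were 2, 4 and 1 in the same order. The other 22 lay in, beside or between 4 neighbouring loci (AW822073, Gm10807, Gm4981 and Gm19459), so the peaks marked a stretch of up to 19 kb rather than Duxf3 alone.

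The dendritic cells had been grown from femoral bone marrow of C57BL/6J mice with 10 ng/ml of the growth factor GM-CSF and were collected on day 6. WT and EGR1-deficient (KO) cells alike had received lipopolysaccharide (LPS, 100 ng/ml) and L-(+)-lactic acid (20 mM) for 24 h, so no unstimulated group was compared. Histone H3 acetylated at lysine 27 (H3K27ac), found at active promoters and enhancers, was precipitated from WT and from KO cells, and the transcription factor EGR1 from WT cells, with 1 library each. The input DNA of each genotype was not analysed here, and how Egr1 was disrupted, the age of the mice and whether marrow was pooled were not given in the sources used here. With 1 library per group, the genotypes could not be compared by a test, and every value below was part of what chose the members, so all are descriptions without a test.

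Dux proteins are transcription factors with a pair of homeodomains. In the mouse they are known for switching on the genes of the earliest embryonic stages, when the zygote's own genome becomes active, and the genes that encode them lie in tandem repeats that are kept silent in most somatic cells. The human counterpart, DUX4, also lies in a repeat array, and its inappropriate activity in muscle is known from facioscapulohumeral dystrophy. How the authors placed reads that match several near-identical copies was not given in the sources used here, and the copy behind each peak is uncertain.

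The starts of both RefSeq protein-coding genes at the centre of the stretch are shown first. By RefSeq coordinates, a peak of every list overlapped the window at the start of Gm4981 and none that of Duxf3. The authors' distances end Duxf3 413 bp short of its RefSeq end, inside a KO H3K27ac peak, and no window was placed there. Both genes run on the minus strand. The sequences cover 250 bases before to 50 bases after each annotated start (RefSeq, build GRCm38.p6), Gm4981 at chr10:58236611-58236910 and Duxf3 at chr10:58233040-58233339. Capitals mark the bases inside a peak in all 3 lists.
Gm4981: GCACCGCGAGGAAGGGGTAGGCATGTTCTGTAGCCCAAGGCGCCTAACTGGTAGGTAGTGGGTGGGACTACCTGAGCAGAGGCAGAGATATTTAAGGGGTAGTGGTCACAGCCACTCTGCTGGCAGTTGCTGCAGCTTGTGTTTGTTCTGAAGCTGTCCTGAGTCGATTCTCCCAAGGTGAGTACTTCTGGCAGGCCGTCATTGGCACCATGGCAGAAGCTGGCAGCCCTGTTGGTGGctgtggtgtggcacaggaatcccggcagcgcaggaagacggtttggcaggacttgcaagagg
Duxf3: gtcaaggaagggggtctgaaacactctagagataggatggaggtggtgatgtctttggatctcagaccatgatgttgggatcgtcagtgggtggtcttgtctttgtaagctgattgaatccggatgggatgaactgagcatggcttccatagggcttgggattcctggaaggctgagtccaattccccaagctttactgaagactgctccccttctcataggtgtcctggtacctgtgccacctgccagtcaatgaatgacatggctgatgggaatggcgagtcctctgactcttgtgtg
Of the 300 bases at Gm4981, 238 lay inside a peak in all 3 lists, and the peaks of the single lists covered 239 (WT H3K27ac), 252 (KO H3K27ac) and 238 (EGR1). No base of the 300 at Duxf3 lay inside a peak. The nearest peak upstream of that window was 139 bp away for WT H3K27ac, 440 bp for KO H3K27ac and 115 bp for EGR1. The EGR consensus GCGNGGGCG, searched on both strands, was in neither sequence, and 5.55% of 32851 promoter windows of the same length hold it. The shorter run GTGGGNG, which overlaps that consensus, occurred once in each as GTGGGTG, 193 bases before the start of Gm4981 and within the capitals, and 164 bases before the start of Duxf3. It is common, with 31.6% of the windows holding it. The Gm4981 window had 57.7% G and C and 8 CpG, and the Duxf3 window 51.0% and 3, beside medians of 52.7% and 7 over all windows.

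Peaks that overlap across the lists were joined, which gave 12 positions, numbered in order of coordinate. Of these, 7 carried a peak in all 3 lists, 2 (positions 4 and 12) in WT H3K27ac and EGR1, 1 (position 7) in both H3K27ac lists and 2 (positions 6 and 9) in KO H3K27ac alone. No position was listed for WT H3K27ac alone or for EGR1 alone. The lists thus differed in the body of Duxf3, where KO listed more peaks, and at positions 4 and 12 to either side of it, where KO listed none. At position 10 the WT and KO H3K27ac peaks were joined only through the EGR1 peak. A peak missing from a list shows that none was called there, not that the mark was absent.

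**Figure D1:**
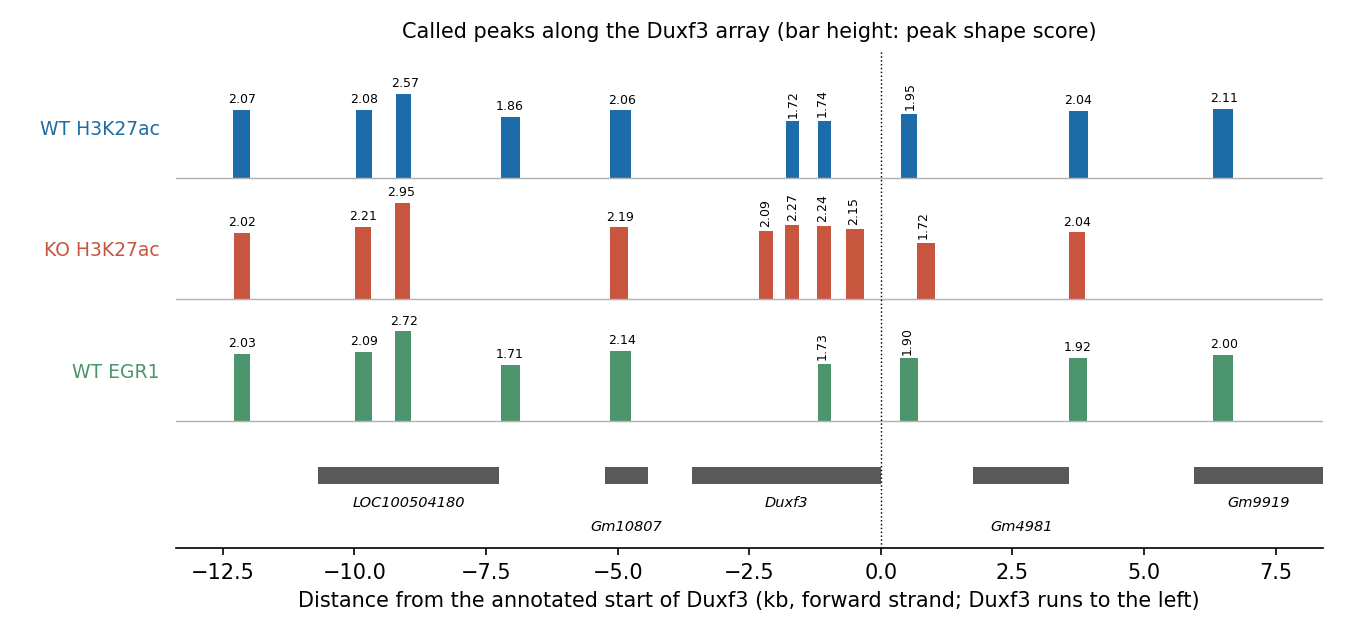
Called peaks of WT H3K27ac, KO H3K27ac and WT EGR1 along the array, with distance from the annotated start of Duxf3 in kb on the x axis, bar width to scale and bar height and number giving the authors' peak shape score. Grey bars are RefSeq genes, Gm9919 runs on past the right edge, and the 4 KO peaks inside Duxf3 stand beside 2 in WT H3K27ac and 1 in EGR1.

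Inside Duxf3 (58229505 to 58233089 in RefSeq, 3585 bp), the KO H3K27ac list held 4 peaks in a row. They lay at 58230774 to 58231040, 58231276 to 58231531, 58231871 to 58232138 and 58232428 to 58232771, and the authors' peak shape scores were 2.09, 2.27, 2.24 and 2.15. The WT H3K27ac list held the inner pair only, at 58231281 to 58231532 with a score of 1.72 and at 58231899 to 58232134 with 1.74. The EGR1 list held the latter only, at 58231894 to 58232138 with a score of 1.73. All 4 KO scores thus stood above the 3 scores of the WT libraries in this gene. The scaling of scores between libraries was not given in the sources used here, and this order describes the lists and not the amount of acetylation.

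The WT and EGR1 peaks in Duxf3 were close to the lower limit of their lists. The lowest score in each list was 1.65, and the WT H3K27ac peaks stood 0.07 and 0.09 above it and the EGR1 peak 0.08. Of the WT H3K27ac list, 4.78% and 6.42% of peaks scored lower than the Duxf3 pair, and of the EGR1 list 5.90% scored lower than the Duxf3 peak. For the 4 KO peaks that share ran from 26.7% at position 6 to 35.2% at position 7. Peaks covered 488 bp of the RefSeq gene in WT H3K27ac (13.6%), 1135 bp of it for KO H3K27ac (31.7%) and 245 bp for EGR1 (6.83%).

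Measured from the RefSeq start, the KO peaks in Duxf3 had their centres 517, 1112, 1667 and 2189 bp into the gene, and the peaks shared with WT H3K27ac were centred 1114 and 1671 bp in for WT. Both positions listed in KO alone lay next to WT peaks, with 240 bp between position 6 and the nearest WT H3K27ac peak and 293 bp between position 9 and its nearest. The authors' distances end Duxf3 at 58232676, which is 413 bp short of the RefSeq end, and the KO peak at position 9 runs 95 bp past it but lies wholly in the RefSeq gene. Counts inside Duxf3 were the same by RefSeq coordinates, at 2, 4 and 1.

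The peak numbers of other genes in WT and KO H3K27ac were set beside those of Duxf3. Of the 230 genes with an H3K27ac peak inside, 27 held more in KO than in WT H3K27ac (11.7%), 29 held fewer and 174 equal numbers. At least 2 more in KO were found in 3 genes (1.30%), which were Duxf3, the centrosome gene Sfi1 and the predicted gene Gm26870, and at least 2 fewer in 3 genes. Since the rule was set on these lists, nothing is read from the place of Duxf3 among the 3.

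Upstream of Duxf3, between it and Gm4981, each list held 1 peak, and here the H3K27ac lists did not meet. It lay at 58233479 to 58233777 for WT H3K27ac (score 1.95), at 58233455 to 58233788 for EGR1 (1.90) and at 58233780 to 58234111 for KO H3K27ac (1.72). The WT and KO regions were 2 bp apart, and the EGR1 region shared 299 bp with the WT one and 9 bp with the KO one. From the authors' end of Duxf3 they lay 803, 779 and 1104 bp away for WT H3K27ac, EGR1 and KO H3K27ac, so they are the nearest peaks that the distance of 0 leaves out. Centres stood 549, 497 and 812 bp upstream of the RefSeq start.

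**Figure D2:**
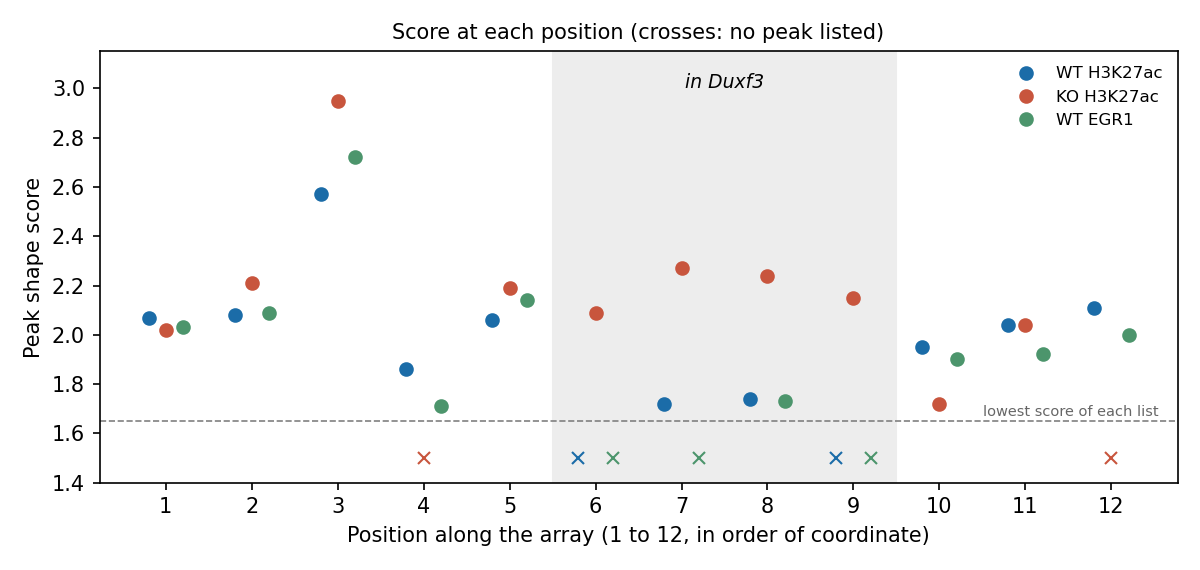
Peak shape score (y axis) at the 12 positions of the array (x axis), 1 point per library, with a cross where a library lists no peak and a dashed line at 1.65, the lowest score of each list. In the shaded positions 6 to 9, inside Duxf3, KO H3K27ac scored 2.09 to 2.27 and the WT libraries 1.72 to 1.74 where listed.

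At Gm4981, a protein-coding gene of 1813 bp, 1 peak per list overlapped the promoter window shown above. The regions were 58236672 to 58237015 for WT H3K27ac, 58236659 to 58236976 for KO H3K27ac and 58236673 to 58237011 for EGR1, with scores of 2.04, 2.04 and 1.92. The authors place all 3 inside Gm4981, whose end by their distances (58236702) is 42 bp beyond the RefSeq end. By RefSeq coordinates only the KO peak reached into the gene, by 2 bp, and the WT H3K27ac and EGR1 peaks began 12 and 13 bp upstream of the start. By RefSeq coordinates these peaks therefore lay upstream of the annotated start, but for those 2 bp, and the peaks inside Duxf3 lay in the gene body. By the authors' distances all 3 spanned the end of Gm4981, with 31, 44 and 30 bp inside it for WT H3K27ac, KO H3K27ac and EGR1. The KO peak at position 9 likewise spanned their end of Duxf3, with 249 bp inside and 95 bp beyond it. The contrast between the genes thus depends on the annotation, and where transcription starts was not examined.

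On the far side of Duxf3, the pseudogene Gm10807 held 1 peak per list, at 58227938 to 58228334 for WT H3K27ac, 58227946 to 58228282 for KO H3K27ac and 58227948 to 58228334 for EGR1. Its scores were 2.06, 2.19 and 2.14. The peak took up 397 bp of the 808 bp pseudogene for WT H3K27ac, 337 bp for KO H3K27ac and 387 bp for EGR1. Between Gm10807 and AW822073, position 4 was listed in WT H3K27ac (58225873 to 58226240, score 1.86) and EGR1 (58225874 to 58226240, 1.71), and the nearest KO peak was 1705 bp away.

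The locus that the authors call AW822073 held 2 peaks in every list, among them the highest score of the stretch. This peak lay at 58223872 to 58224155 for WT H3K27ac, 58223858 to 58224143 for KO H3K27ac and 58223866 to 58224153 for EGR1, with scores of 2.57, 2.95 and 2.72. The other, starting at 58223110, 58223097 and 58223105, scored 2.08, 2.21 and 2.09. RefSeq's symbols and older symbols do not hold AW822073, and its protein-coding LOC100504180 (58222403 to 58225832) covers both peaks. The first peak of the stretch, 1866 bp from AW822073 in WT H3K27ac, scored 2.07, 2.02 and 2.03.

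The last peak of the stretch was listed at 58239395 to 58239774 in both WT libraries, with a score of 2.11 in H3K27ac and 2 in EGR1. The authors place it inside Gm19459, and RefSeq holds a noncoding RNA, Gm9919 (58239034 to 58252702), there. KO H3K27ac had no peak in it, and its nearest was 2418 bp away. Gcc2, which encodes a golgin of the Golgi network and reaches from 58255408 out of the window, held no peak in any list. Nor did the nearest protein-coding genes outside the window, Smpdl3a, which encodes a phosphodiesterase of the acid sphingomyelinase family, and Lims1, which encodes an adaptor of integrin adhesions.

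Shared positions were counted next, with an overlap of at least 1 bp. Of the 10 WT H3K27ac peaks, 7 overlapped a KO H3K27ac peak, or 70.0%, beside 86.8% of the whole WT list. With so few peaks, chosen on the lists themselves and from 1 library, no difference from the whole list is read from this share. Of the 10 KO H3K27ac peaks, 7 overlapped a WT one, beside 88.3% of the whole KO list. Over peaks outside the array with a score in the array's range, the shares were 75.7% of 317 WT peaks and 82.1% of 364 KO peaks. All 9 EGR1 peaks overlapped a WT H3K27ac peak, beside 97.0% of the EGR1 list. Of the 9, 7 overlapped a KO H3K27ac peak, or 77.8%, beside 87.7% of the list. Of these 7, 1 overlapped by only the 9 bp upstream of Duxf3. Over 360 EGR1 peaks outside the array in its score range, the shares were 97.2% for WT H3K27ac and 77.8% for KO H3K27ac. In the other direction, 9 of 10 WT H3K27ac peaks overlapped an EGR1 peak, beside 95.9%, and the exception was the peak of Duxf3 at position 7. Of the KO H3K27ac peaks 7 of 10 did, beside 88.2%, and the 3 others all lay in Duxf3. Outside the array in its score range, 94.0% of 317 WT H3K27ac peaks and 83.0% of 364 KO H3K27ac peaks overlapped an EGR1 peak.

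Peaks with exactly 1 partner in each direction allowed a comparison of shape. For KO against WT H3K27ac there were 7 such pairs in the array, and the KO score was higher in 5, lower in 1 and equal in 1, beside 45.7% higher over 739 pairs of the whole lists. The differences were 0.55 and 0.50 at the pair in Duxf3, 0.38 at position 3 in AW822073 and between -0.05 and 0.13 at the remaining 4. KO peaks were shorter in 4 of the 7 pairs, beside 80.8% of all pairs. In Duxf3 the KO peaks were longer than their WT partners, at 256 bp against 252 bp and 268 bp against 236 bp, and the median over the 7 was -7 bp, beside -12 bp over all 739.

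For EGR1 against WT H3K27ac, 9 pairs were matched, and the regions nearly coincided. Centres were at the same base in 6 of the 9, with the widest distance of 52 bp upstream of Duxf3, beside a median of 1 bp over 814 pairs. The EGR1 score was higher in 3 of 9, beside 36.9% of all pairs, and no difference was above 0.15 in size. EGR1 peaks were shorter in 4 of 9, beside 54.9%, and the median difference in length was 0 bp.

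**Figure D3:**
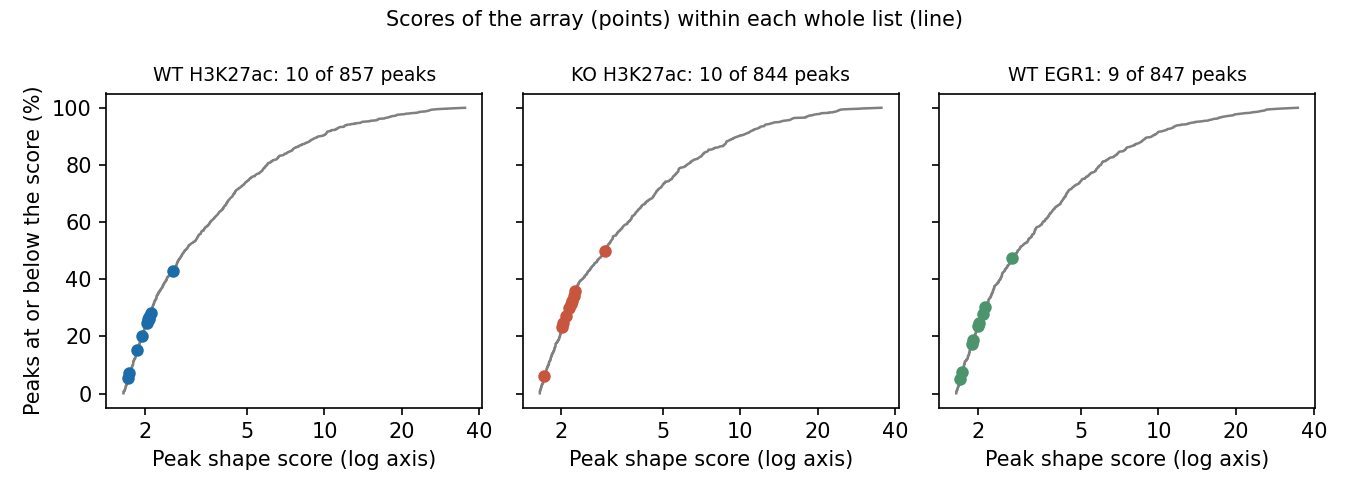
Share of each list at or below a given peak shape score (grey line, log x axis) with the array's peaks as points, 1 panel per library. All 29 points lie below their list's median score, and the highest of them is the KO H3K27ac peak in AW822073 at 2.95.

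Against their own lists, the peaks of the array were mostly low in score and ordinary in length. Scores ran from 1.72 to 2.57 for WT H3K27ac (median 2.05), 1.72 to 2.95 for KO H3K27ac (2.17) and 1.71 to 2.72 for EGR1 (2). The medians of the whole lists were 2.86, 2.955 and 2.85, and all 29 peaks lay under their list's median. The peaks at position 3 were near the middle, with 42.7%, 49.6% and 47.0% of their lists scoring lower. Lengths ran from 236 to 397 bp for WT H3K27ac, 256 to 344 bp for KO H3K27ac and 245 to 387 bp for EGR1. Their medians were 319 bp, 303 bp and 334 bp, beside 324 bp, 310 bp and 323 bp over the whole lists.

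**Figure D4:**
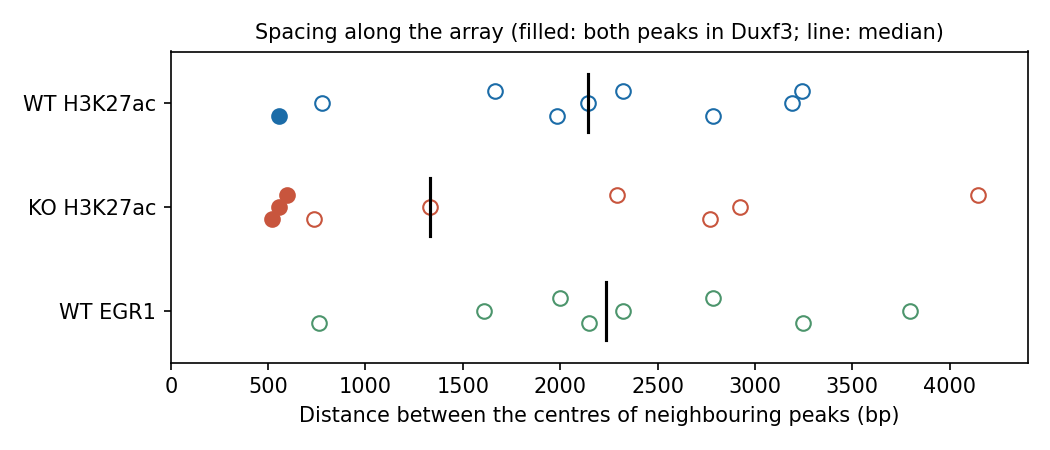
Distance in bp between the centres of neighbouring peaks in each library (circles, filled where both peaks lie in Duxf3) with the median as a black line. The filled circles sit at 522, 555 and 595 bp in KO H3K27ac and at 557 bp in WT H3K27ac, and EGR1 has none.

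The peaks of the array lay closest together inside Duxf3 in both H3K27ac lists. In KO H3K27ac the centres of the 4 peaks in Duxf3 were 522, 555 and 595 bp apart, and in WT H3K27ac the centres of the pair were 557 bp apart. The pair in AW822073 came next, at 777 bp for WT H3K27ac, 735 bp for KO H3K27ac and 760 bp for EGR1. The other gaps ran from 1663 to 3241 bp for WT H3K27ac, 1329 to 4147 bp for KO H3K27ac and 1611 to 3795 bp for EGR1, and the medians over all gaps were 2145, 1329 and 2236 bp.

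The stretch stood alone on its part of the chromosome. The nearest peaks on chromosome 10 began at 52144349 in Ros1 and at 61373917 in Pald1 in WT H3K27ac, with scores of 2.41 and 2.76. They lay 6076119 bp to the left and 3134142 bp to the right, so the bounds of the window did not decide which peaks were members. The array held 10 of the 46 WT H3K27ac peaks of chromosome 10 (21.7%), 10 of the 46 KO H3K27ac peaks and 9 of the 47 EGR1 peaks. When peaks within 10 kb were joined, 7 clusters of WT H3K27ac held more peaks, out of 62 clusters with at least 2. In KO H3K27ac it was 6 of 61, and in EGR1 7 of 62.

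Other genes with many peaks held them at higher scores. The 5 genes with the most peaks inside in WT H3K27ac were Gm26870, Sfi1, Tmem267, Tcte2 and C130026I21Rik. Their median WT H3K27ac scores were 8, 2.69, 3.96, 3.96 and 1.85, beside 1.73 for Duxf3. C130026I21Rik, the nearest in score, went the other way in number, with 7 WT H3K27ac peaks, 4 KO H3K27ac peaks and 6 EGR1 peaks.

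A list of 52 distinct genes of the Dux family, regulators of Dux and genes of the early embryo was searched for peaks inside or within 2 kb, of which 47 matched a RefSeq symbol. The symbols Dux, Duxf1, Duxf2, Duxf4 and Eif1ad2 did not match, so their peaks could be found only under the authors' gene names. Whether neighbouring loci such as Gm4981, which has a peak in every list, are Dux copies was not examined. The count that follows therefore goes by symbol and can miss Dux copies under other names. In each library 2 of the 52 had a peak, Sp110, a nuclear body gene, and Duxf3 itself, which the choice of members fixes. Of all 49980 RefSeq genes searched the same way, 0.738% had a WT H3K27ac peak, 0.694% a KO H3K27ac peak and 0.738% an EGR1 peak. The Sp110 peak on chromosome 1 (85593619 to 85593945 in WT H3K27ac) scored 1.90 for WT H3K27ac, 1.81 for KO H3K27ac and 2.07 for EGR1, and a second one nearby was listed in the WT libraries only, at 1.73 and 1.69. No peak was listed within 2 kb of the Zscan4 genes or Zfp352, which Dux is known to activate, of Dppa2 or Dppa4, known activators of Dux, or of Trim28 and Smchd1, known for silencing repeats. Of 20 dendritic cell markers, only Csf2ra, a chain of the GM-CSF receptor, had a peak within 2 kb in each library, and Itgax, Flt3, Zbtb46 and Cd74 had none, so the lists do not bear on the labelled cell type. No list had a peak within 50 kb of Egr1, so they do not bear on the KO label either.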

How the data were processed

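ChIP-seq peaks of 3 of the 5 samples were analysed, grouped by sample title, with 1 library per group. The authors deposited a peak list per sample, and the submitters' processing notes name mm10. The aligner, peak caller, filters and use of input were not given in the sources used here. The peak shape score and the p-value are the authors' own, per the file headers. Every deposited p-value was at most 0.05 and within 0.006 of the normal upper-tail probability of its score. Depth is unknown, since no counts are listed. Overlaps (at least 1 bp), spacings and lengths were computed in Python 3.11.15 with pandas 2.3.3, numpy 2.4.6 and scipy 1.17.1, matching was tested on simulated data, and figures were drawn with matplotlib 3.10.9. Positions count from 1. Gene coordinates and promoter sequences are RefSeq's (GRCm38.p6, the assembly of mm10). Named genes are Duxf3, those the authors name beside its peaks, RefSeq genes in the window and nearest to it, the 5 with the most peaks, up to 6 of the Dux list with a peak, examples of both lists without one and, chosen after their values were seen, genes with at least 2 more peaks in KO and the genes of the nearest outside peaks. The members and lists were chosen with earlier results of these data known. Alternatives covered the score threshold, overlap rule, placing point and annotation.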

Additional observations from a re-analysis of the deposited data

How the results depend on the processing

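Of 49 alternative values, 20 stayed within 1.5 times the reported count or equal to the reported median. Counts depended most on the score. With a score of at least 2, the array held 6 WT H3K27ac peaks, 9 KO H3K27ac peaks and 5 EGR1 peaks, and Duxf3 held 0, 4 and 0. With a score of at least 3, array and Duxf3 alike held 0 in every list. With both peaks at 2 or more, 5 EGR1 peaks overlapped a WT H3K27ac peak and 4 a KO one, and the overlap of WT with KO H3K27ac was 5 in either direction. RefSeq coordinates left the counts in Duxf3, and peak centres the counts in the array, as they were. Median spacing between region starts was 2065, 1352 and 2189 bp in WT H3K27ac, KO H3K27ac and EGR1, and at a score of at least 2 it was 2786, 1513 and 3236 bp. Within Duxf3 alone it was 557 bp in WT H3K27ac and 555 bp in KO H3K27ac, with no value for EGR1, which has 1 peak there. Median length within Duxf3 was 244, 268 and 245 bp, and at a score of at least 2 it was 332, 293 and 324 bp. The median score within Duxf3 was 1.73, 2.20 and 1.73. The higher threshold leaves fewer peaks by construction; the cause of the other differences was not tested. Overlap of WT with KO H3K27ac stayed at 7 under stricter overlap rules, and that of EGR1 with KO fell to 6. No paired analysis was possible because each group has 1 library and no test was made.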
